A study of Mus musculus with 59 samples.

Results

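The 37 genes described here are interferon-stimulated genes, a list proposed with earlier results of these data known, because several of its members were higher in the brainstem of mutant mice. They are 37 of the 54232 mouse genes counted. Genotype differences in the brainstem chose the list, so brainstem genotype values are given as a description. Counts of members past a threshold there are part of that description, carry no p-value for a member and are not evidence. Genotype tests are read only in the other 4 regions, and levels were tested in wildtype (WT) mice. Read counts came from RNA-seq of cerebellum, brainstem, hippocampus, striatum and cortex of C57BL/6 mice aged 10 weeks, and the labels tie each library to a numbered mouse. WT mice were compared with knock-in mice carrying 1 *Atxn1* allele with an expanded CAG repeat, in the gene's own locus, beside a normal allele (*Atxn1* 154Q/2Q, called 154Q), a model of spinocerebellar ataxia type 1. The remaining genotype was *Atxn1* 154Q[V591A;S602D]/2Q, called 154Q-AXH, in which the expanded allele also carries V591A and S602D, substitutions made by gene editing in the AXH domain that disrupt the binding of ATXN1 to the repressor CIC (numbered as in the human protein). There were 12 mice, 4 of each genotype, and 59 libraries, since the brainstem of 1 154Q-AXH mouse was not analysed here.

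Interferons are secreted proteins that signal through cell-surface receptors and JAK kinases. Type I and type III interferons lead to a complex holding STAT2 and IRF9 that binds a promoter sequence called the interferon-stimulated response element, while interferon-gamma acts through promoter sequences called gamma-activated sites. Target genes include sensors of viral RNA (*Ifih1*, *Ddx58*, *Dhx58*), transcription factors that feed back on the pathway (*Irf7*, *Irf9*, *Stat2*), antiviral effectors (the Ifit, Oas and Mx genes, *Rsad2*, *Bst2*), the ubiquitin-like *Isg15* with its protease *Usp18*, guanylate-binding proteins, and genes of antigen processing and presentation (*Tap1*, *Psmb8*, *Psmb9*, *B2m*). In brain tissue a low level of many of these genes is present without infection, and microglia, endothelium and astrocytes can all respond.

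Promoters of some members hold a core of the sequence through which the pathway acts, and windows of some of those members are printed for that reason. RefSeq promoters of the GRCm38.p6 assembly, 300 bases running from 250 before to 50 after the gene start, were found for 28 of the 37 members. The letters GAAANNGAAA, a core of the interferon-stimulated response element, were searched on both strands (TTTCNNTTTC on the other). They were present in 14 of the 28 members (50%) and in those of 3.99% of all 27025 genes with a promoter in the table. The letters TTCNNNGAA of a gamma-activated site were present in 6 of the 28 (21.4%) and in those of 9.55% of all genes. The windows of 7 members follow, read 5′ to 3′ on the gene's strand, with matches to the first motif in capitals.
Isg15: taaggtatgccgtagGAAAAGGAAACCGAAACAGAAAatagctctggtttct
Ifit1: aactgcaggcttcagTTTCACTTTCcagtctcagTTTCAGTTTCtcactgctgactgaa
Ifit3: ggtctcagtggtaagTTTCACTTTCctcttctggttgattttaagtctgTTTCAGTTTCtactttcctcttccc
Ifit3b: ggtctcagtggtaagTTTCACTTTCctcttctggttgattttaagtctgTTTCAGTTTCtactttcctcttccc
Gbp3: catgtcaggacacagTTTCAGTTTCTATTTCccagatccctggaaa
Bst2: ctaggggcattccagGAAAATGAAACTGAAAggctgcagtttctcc
B2m: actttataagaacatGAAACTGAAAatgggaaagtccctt

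These windows lie at chr4:156200860-156200911 for *Isg15* (minus strand), chr19:34640770-34640828 for *Ifit1*, chr19:34583358-34583431 for *Ifit3*, chr19:34607754-34607827 for *Ifit3b*, chr3:142559984-142560029 for *Gbp3*, chr8:71537572-71537617 for *Bst2* (minus strand) and chr2:122147533-122147572 for *B2m*. In *Isg15* 3 overlapping matches ran together, and *Bst2* and *Gbp3* held 2 overlapping matches each. *Ifit1* and *Ifit3* held 2 separate matches each. The *Ifit3* and *Ifit3b* windows were letter for letter the same. The promoters of *Irf7* (chr7:141266375-141266674) and *Oasl2* (chr5:114896684-114896983) held neither motif, which says only that these letters are not in these windows.

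Several members lie side by side in the genome. *Ifit2*, *Ifit3*, *Ifit3b* and *Ifit1* fall within chr19:34550694-34650009, and *Gbp7*, *Gbp3* and *Gbp2* within chr3:142530342-142638008. *Parp14*, *Dtx3l* and *Parp9* lie within chr16:35832874-35972605, and *Psmb9*, *Tap1* and *Psmb8* within chr17:34181987-34201454. *Ifit3* and *Ifit3b* are near copies: 31.7% of the 100-base words in *Ifit3* exons and 27.4% of those in *Ifit3b* occur in the other gene, so their counts are uncertain and they are not independent. Exons of *Parp9* and *Dtx3l* overlap by 458 bases, and those of *Tap1* and *Psmb9* by 212. The counts used no strand, so reads in these overlaps cannot be assigned.

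Libraries held 28058359 to 112343574 counts, fewest in striatum and cortex. All 37 members passed the filter on low counts in every comparison. Replicates are mice, and p-values of the genotype comparisons within a region and in the sum measure the spread between them. The tests of region in WT and of genotype by region had no mouse term. Their p-values measure the spread between libraries, several of which come from the same mouse. Mouse numbers fell into a lower and a higher series, which the labels do not explain. All 154Q mice had lower and all 154Q-AXH mice had higher numbers, with 2 WT mice in each series, so the comparison of 154Q-AXH with 154Q cannot be told apart from the series. By *Xist* and the Y-linked *Ddx3y*, mice 154Q-75 and 154Q-AXH-217 were female in every region measured. The other mice were male by these genes, apart from libraries named below. Sex was thus not balanced, since each mutant group held a female and the WT group did not. In brainstem only the 154Q group held a female, since the 154Q-AXH mouse without a brainstem library was 154Q-AXH-217. Of the libraries, 4 stood apart from their labels. Hippocampus 154Q-76 held both *Xist* and the Y-linked *Ddx3y* and had a brainstem marker sum of 344 CPM (counts per 1000000 counts of the library), against at most 1.7 in the other hippocampal libraries. Cortex WT-221 had *Xist* but no *Ddx3y*, the reverse of what that mouse's other regions held, and the file names of cortex 154Q-76 and cortex 154Q-AXH-207 were exchanged against the labels, which were followed. Striatal marker sums ran from 453 to 4172 CPM over the striatal libraries and did not overlap between WT (1240 to 4172 CPM) and 154Q (496 to 884 CPM), and whether this reflects dissection or expression was not tested.

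In WT mice the members differed widely in level, and the region of highest level differed between members. Levels are CPM per kilobase of exon (CPM per kb), with mean ± SD of 4 WT libraries. *B2m*, the light chain of class I histocompatibility molecules, was the highest member in every region, from 80.5 ± 9.68 in hippocampus to 94.5 ± 5.34 in brainstem. *Ifi27* had levels from 12.4 ± 4.78 in cerebellum to 23.8 ± 6.62 in hippocampus. At the other end *Mx1* and *Oasl1* were near the limit of detection, with 1 to 59 and 2 to 50 counts per library over all 59 libraries. No library was without a count of either gene.

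Brainstem was the region of highest WT level for 17 of the 37 members, cerebellum for 11 and each remaining region for 3. A test of all regions in WT (edgeR quasi-likelihood test, Benjamini-Hochberg adjusted p under 0.05, here and below) passed for 28 members, beside 91.6% of all genes tested. Against the mean of the other regions, 18 members were higher and 2 lower in brainstem, where 32.6% of all genes were higher and 32.0% lower. The median difference of the members in brainstem was 0.36 (log2). Among the members higher there were *Oasl2*, an oligoadenylate synthetase-like protein, by 0.84 (SE 0.102, adjusted p = 4.6e-07) and *Xaf1*, an interferon-induced pro-apoptotic gene, by 0.80 (SE 0.0824, adjusted p = 3.65e-08). *Ifit2* was higher in brainstem by 0.64 (SE 0.0839, adjusted p = 1.11e-06) and lower in cerebellum.

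In WT cerebellum 11 members were higher and 9 lower than in the other regions, with 37.2% of all genes higher and 35.2% lower. *Stat2* stood at 14.4 ± 1.11 CPM per kb in cerebellum and at 4.24 to 4.76 in each of the other regions, a difference of 1.68 (log2, SE 0.0584, adjusted p = 7.11e-16). *Irf1*, a transcription factor induced most strongly by interferon-gamma, differed in the other direction. It was lowest in cerebellum (0.700 ± 0.0976 CPM per kb, -1.01 against the other regions, SE 0.0905, adjusted p = 3.24e-09) and highest in hippocampus (1.84 ± 0.143 CPM per kb, 0.75, SE 0.0773, adjusted p = 6.78e-08). The IFIT pair *Ifit3* and *Ifit3b* was higher in cerebellum (0.91 and 0.99) and lower in hippocampus (-0.84 and -0.91). *Psmb8* and *Psmb9*, the inducible proteasome subunits, were higher in striatum (0.52 and 0.56) and lower in cerebellum (-0.61 and -0.59). *Irf7*, the factor that amplifies type I interferon production, differed little in level: only in hippocampus was it different from the other regions (-0.52, SE 0.135, adjusted p = 0.00276).

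**Figure D1:**
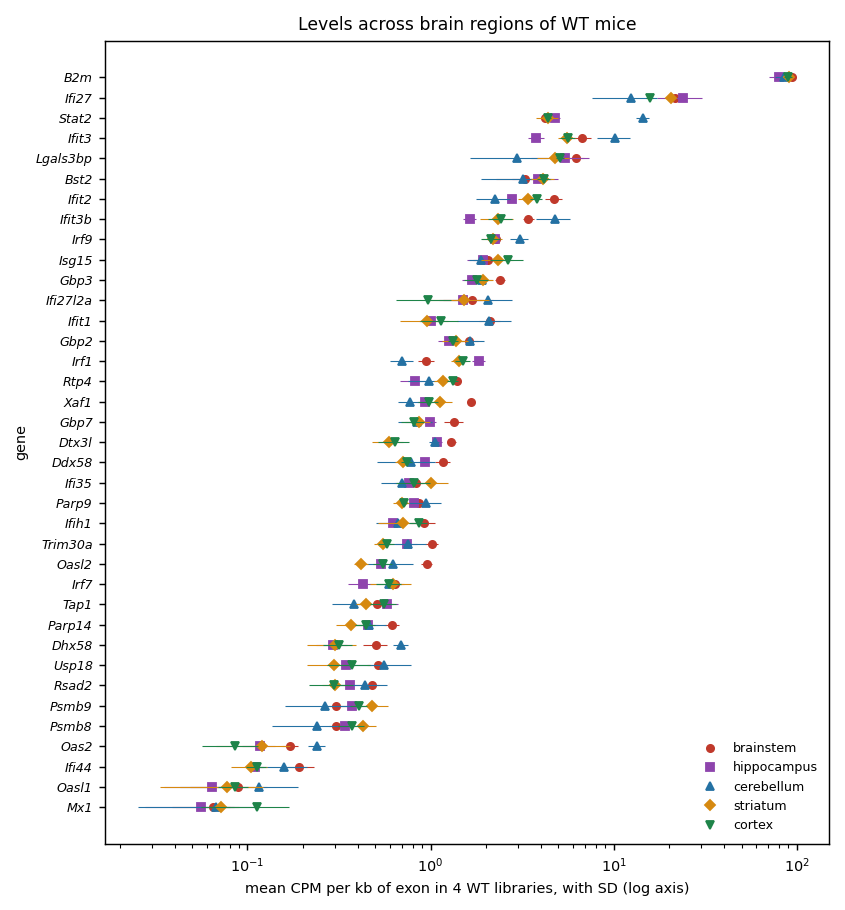
Level of each of the 37 members in WT mice, as CPM per kilobase of exon on a log axis, by region. Points are means and bars are the SD of 4 WT libraries. *B2m* stands above all other members, and *Stat2* in cerebellum (14.4) stands apart from its levels of 4.24 to 4.76 in the other regions.

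In the brainstem of 154Q mice the members lay above WT as a group, which is the pattern the list was made from. All 37 had a log2 fold change above 0, from 0.04 (*Dtx3l*) to 1.49 (*Ifi27l2a*), with a median of 0.42, beside a median near 0 over all genes. In 22 members every 154Q library was above every WT library (3.25% of all genes) and 13 passed the threshold, beside 0.138% of all genes higher. Since the rule used this contrast, these counts are not evidence for the members. By role, the IFIT genes had a median of 0.57, the 13 other antiviral and induced genes 0.68, the RNA sensors 0.41, the antigen presentation genes 0.35 and the transcription factors 0.30. In whole tissue, fewer cells of a type and less RNA per cell cannot be told apart, here and below. Sums of 10 microglial markers overlapped, with 244 to 277 CPM in WT and 242 to 279 CPM in 154Q brainstem.

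In brainstem *Irf7* had 2.25 CPM in WT-70, 2.10 in WT-77, 2.66 in WT-220 and 2.67 in WT-221. It had 4.35 CPM in 154Q-69, 4.81 in 154Q-71, 4.38 in 154Q-75 and 4.71 in 154Q-76, and 3.94, 4.27 and 2.89 CPM in 154Q-AXH-207, 154Q-AXH-209 and 154Q-AXH-218. Values of other genes are given in the same order of mice. All mutant libraries were above all WT libraries, and the 154Q libraries were above the 154Q-AXH libraries. *Oasl2* had 6.04, 6.47, 5.48 and 6.32 CPM in WT, 9.16, 13.9, 13.1 and 10.6 CPM in 154Q, and 8.52, 8.95 and 7.22 CPM in 154Q-AXH. The 3 genotypes did not overlap in *Oasl2* either. *Ifi27l2a*, a small protein induced by interferon, had 0.486, 0.979, 0.947 and 0.698 CPM in WT, 2.26, 3.31, 2.20 and 1.11 CPM in 154Q, and 1.41, 1.36 and 1.38 CPM in 154Q-AXH. Mouse 154Q-76 was lowest of the 154Q mice and lay below all 3 154Q-AXH mice.

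The IFIT proteins bind viral RNA or block translation of it. *Ifit3* had 11.9, 12.8, 12.3 and 10.1 CPM in WT, 17.5, 23.1, 17.9 and 19.0 CPM in 154Q, and 15.5, 15.3 and 16 CPM in 154Q-AXH brainstem. Again no library of 1 genotype reached into another. *Ifit1* had 6.52, 5.35, 5.72 and 4.82 CPM in WT, 7.28, 10.1, 7.89 and 9.45 CPM in 154Q, and 6.44, 5.82 and 6.71 CPM in 154Q-AXH, whose libraries overlapped WT. *Ifi44*, an interferon-induced gene of low level, had 1.45, 0.907, 1.27 and 1.08 CPM in WT, 2.30, 2.03, 2.87 and 2.46 CPM in 154Q, and 1.63, 1.55 and 1.31 CPM in 154Q-AXH. *Usp18*, the protease that removes ISG15 and damps type I receptor signalling, had 1.64, 1.5, 1.21 and 1.4 CPM in WT, 2.03, 2.99, 2.96 and 2.33 CPM in 154Q, and 1.67, 1.66 and 1.49 CPM in 154Q-AXH. For both genes the 154Q libraries stood above all others, while 154Q-AXH and WT overlapped. *Oasl1* was higher in each 154Q library (0.388 to 0.477 CPM) than in any WT library (0.0922 to 0.337 CPM).

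*B2m*, the most abundant member, had 80.3, 87.0, 79.7 and 77.5 CPM in WT, 93.8, 114, 113 and 91.7 CPM in 154Q, and 88.4, 91.2 and 87.9 CPM in 154Q-AXH. All mutant libraries were above WT. *Gbp3*, a guanylate-binding protein, had 7.17 to 8.19 CPM in WT, 11.6 to 15.2 CPM in 154Q and 9.52 to 9.96 CPM in 154Q-AXH, with no overlap. *Stat2* and *Dtx3l* were closest to WT, at log2 fold changes of 0.09 and 0.04. Passing the threshold did not strictly follow the fold change. The 13 members past it included *Ifi44* (1.04) and *Oasl2* (0.93) but also *B2m* (0.34), while *Ifi27l2a* (1.49), *Mx1* (0.98) and *Oasl1* (0.84) did not pass.

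**Figure D2:**
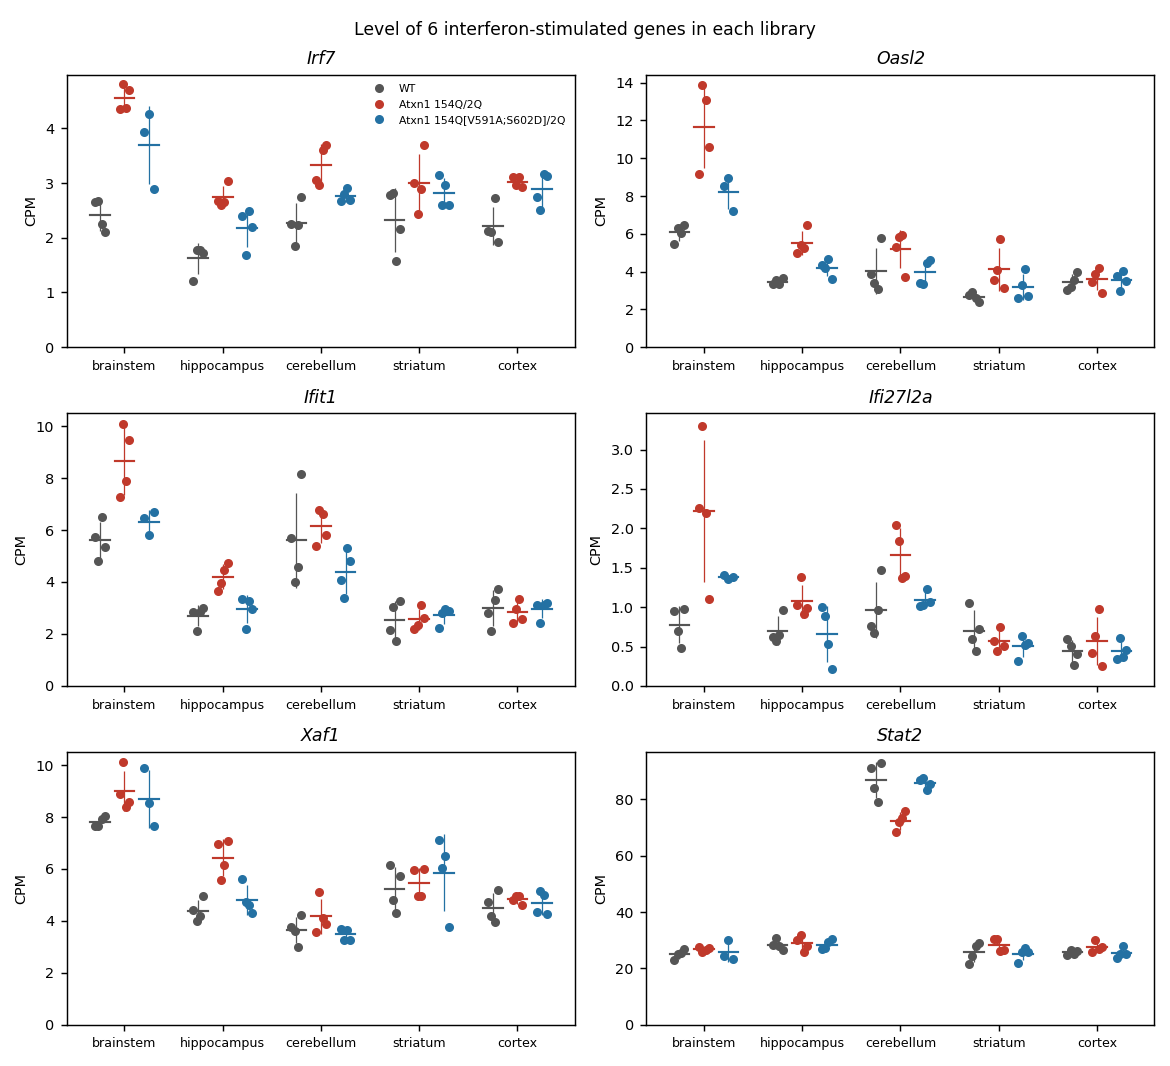
CPM of *Irf7*, *Oasl2*, *Ifit1*, *Ifi27l2a*, *Xaf1* and *Stat2* in each library, by region and genotype, with the mean and SD of each group. In brainstem the 154Q libraries of *Irf7* (4.35 to 4.81) lie above WT (2.10 to 2.67), and in cerebellum *Stat2* is lower in 154Q (68.3 to 75.9) than in WT (79.1 to 92.9).

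Outside the brainstem, the members were tested region by region, and hippocampus held the most calls. In 154Q hippocampus 31 of the 37 members were above WT in log2 fold change, with a median of 0.28, and 7 passed the test, all of them higher, beside 5.91% of all genes in either direction and 2.52% higher. They were *Oasl2*, *Irf7*, *Xaf1*, *Rtp4*, *Ifit1*, *Ifi44* and *Dtx3l*. Of the members by role, all 4 IFIT genes, all 3 RNA sensors and all 3 guanylate-binding proteins were above 0, while the antigen presentation genes had a median of 0.03. In 13 members all 154Q libraries were above all WT libraries, beside 6.06% of all genes.

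*Oasl2* had 3.33, 3.65, 3.31 and 3.54 CPM in WT hippocampus, 5.0, 5.40, 5.26 and 6.44 CPM in 154Q, and 4.36, 4.19, 4.67 and 3.63 CPM in 154Q-AXH. The 154Q libraries were above all others, a rise of 0.69 over WT (log2, SE 0.104, adjusted p = 0.00356). *Irf7* had 1.78, 1.72, 1.2 and 1.78 CPM in WT, 2.67, 2.59, 2.66 and 3.03 CPM in 154Q, and 2.39, 1.68, 2.49 and 2.19 CPM in 154Q-AXH. It rose by 0.76 in 154Q (SE 0.151, adjusted p = 0.0125), and 154Q-AXH-209 lay within WT. *Xaf1* had 4.20, 4.95, 4.43 and 3.99 CPM in WT and 6.97, 5.59, 6.14 and 7.07 CPM in 154Q, a rise of 0.56 (SE 0.112, adjusted p = 0.0132). In brainstem, the log2 fold change of the same gene was 0.20.

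*Rtp4*, an interferon-induced receptor transporter, had 1.78, 2.08, 1.33 and 1.90 CPM in WT hippocampus and 2.53, 2.64, 2.77 and 3.27 CPM in 154Q, a rise of 0.66 (SE 0.136, adjusted p = 0.0153). Its 154Q-AXH libraries (1.78 to 2.02 CPM) lay within the WT range. *Ifit1* had 2.84, 3.01, 2.85 and 2.11 CPM in WT and 3.66, 3.96, 4.47 and 4.72 CPM in 154Q, a rise of 0.64 (SE 0.150, adjusted p = 0.0261). *Ifi44* had 0.769, 0.683, 0.574 and 0.675 CPM in WT and 0.919, 0.959, 1.27 and 1.25 CPM in 154Q, a rise of 0.71 (SE 0.179, adjusted p = 0.0363). In both genes no 154Q library reached into the WT range. *Dtx3l*, an E3 ligase that pairs with PARP9, had 5.74, 6.22, 6.51 and 6.59 CPM in WT and 7.91, 7.22, 8.0 and 7.45 CPM in 154Q, a rise of 0.30 (SE 0.0764, adjusted p = 0.0393). Over the alternatives fitted, the hippocampal calls of *Dtx3l* and *Ifi44* were lost in 15 and 13 and kept in 5 and 7. That of *Oasl2* was lost in 1 and kept in 19.

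The hippocampal calls were made with 4 WT mice of both number series. Against the 2 WT mice of the lower series alone, no member passed, and the log2 fold changes were 0.67 for *Oasl2*, 0.66 for *Irf7*, 0.51 for *Xaf1*, 0.55 for *Rtp4*, 0.54 for *Ifit1*, 0.62 for *Ifi44* and 0.37 for *Dtx3l*, with a median over members of 0.16. Hippocampus 154Q-76, the library with brainstem markers, was the highest 154Q library for 5 of the 7 (*Irf7*, *Oasl2*, *Xaf1*, *Rtp4* and *Ifit1*), and without it 6 members passed. Fewer passed with the *Xist* level as a covariate. Red blood cell markers were lower in 154Q hippocampus (34.3 to 49.2 CPM) than in WT (59.2 to 136 CPM), and the sums of microglial markers were 301 to 358 CPM in 154Q and 334 to 375 CPM in WT. Hippocampal marker sums were also lower in 154Q (157 to 192 CPM) than in WT (297 to 378 CPM), with 208 to 394 CPM in 154Q-AXH. The part of these markers in the result was not tested.

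In 154Q cerebellum 28 of the 37 members were above WT, with a median log2 fold change of 0.13, and 2 passed the test, *Irf7* upward and *Stat2* downward, beside 5.22% of all genes (2.1% higher and 3.12% lower). *Irf7* had 2.23, 2.75, 2.25 and 1.86 CPM in WT, 3.06, 2.96, 3.61 and 3.70 CPM in 154Q, and 2.67, 2.81, 2.91 and 2.7 CPM in 154Q-AXH. It was the only member with no overlap above WT (4.59% of all genes), rising by 0.54 (SE 0.122, adjusted p = 0.0169). *Stat2* had 79.1, 92.9, 91.0 and 83.9 CPM in WT, 68.3, 72.0, 73.4 and 75.9 CPM in 154Q, and 86.9, 87.8, 83.5 and 85.6 CPM in 154Q-AXH. It fell by 0.26 in 154Q (log2, SE 0.0497, adjusted p = 0.00622). For the direct comparison of 154Q-AXH with 154Q, *Stat2* was 0.24 higher (SE 0.0496), which did not pass over all genes (adjusted p = 0.136). Genes with no call included *Ifi27l2a*, with 0.669 to 1.47 CPM in WT and 1.37 to 2.05 CPM in 154Q (0.78, SE 0.218, adjusted p = 0.0548).

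WT mouse 77 stood apart in the cerebellum. All 37 members were above the WT mean in its cerebellum, with a median deviation of 0.42 (log2), and its medians in the other regions were 0.02 to 0.15. *Ifit1*, for example, had 8.15 CPM in that library and 3.98 to 5.68 CPM in the other WT cerebella. The same library had the highest cerebellar sums of choroid plexus (3043 CPM), meningeal fibroblast (106 CPM) and red blood cell markers (168 CPM). The part of these markers in its values was not tested. Without this library 7 members passed in 154Q cerebellum, while the share of all genes given above for cerebellum is that with all WT mice. Against WT mice 70 and 77 alone, which share the lower series with the 154Q mice, the median over members was -0.04 and no member passed. *Irf7* was then 0.41 and *Stat2* -0.25.

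Striatum and cortex showed little change over the members. In 154Q cortex *Irf7* alone passed, with 2.73, 1.93, 2.12 and 2.11 CPM in WT, 3.10, 2.97, 3.11 and 2.93 CPM in 154Q, and 2.75, 2.50, 3.16 and 3.12 CPM in 154Q-AXH. The rise over WT was 0.46 (SE 0.132, adjusted p = 0.0355), the only call among members where 11.1% of all genes passed and 4.4% were higher. It was lost when the exchanged cortical pair was left out, and against WT mice 70 and 77 alone (0.39). The median over members was 0.10, with 27 above 0. In 154Q striatum 20 members were above 0, the median was 0.04, and edgeR called no member, beside 5.69% of all genes by edgeR. At an unadjusted p under 0.05 there were 3 members, and DESeq2 called 2.

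The striatal values nearest to a call belonged to *Dtx3l* and *Oasl2*. *Dtx3l* had 3.89, 3.71, 2.44 and 3.49 CPM in WT striatum and 5.56, 5.74, 5.0 and 4.32 CPM in 154Q (0.61, SE 0.174, adjusted p = 0.0611). *Oasl2* had 2.59, 2.37, 2.74 and 2.90 CPM in WT and 3.57, 4.07, 5.73 and 3.12 CPM in 154Q (0.63, SE 0.199, adjusted p = 0.0839). In both genes, and in *Parp9* and *Tap1*, all 154Q libraries were above all WT libraries (9.34% of all genes). *Irf7* overlapped, with 1.58 to 2.81 CPM in WT and 2.43 to 3.70 CPM in 154Q. The sum of markers listed for infiltrating leukocytes was higher in WT striatum (24.3 to 88.1 CPM) than in 154Q striatum (8.08 to 14.2 CPM). Over the striatal libraries it went with the striatal marker sum, at 88.1 beside 4172 CPM in WT-220 and 48.6 beside 2446 CPM in 154Q-AXH-217. In the other regions it was at most 5.16 CPM. It was therefore not read as leukocyte content, and the part of both sums in these values was not tested.

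*Irf7* passed in 3 of the 4 regions outside the brainstem and in their sum. When the counts of the 4 regions outside the brainstem were summed in each mouse, 6 members passed in 154Q against WT, all higher, beside 12.6% of all genes in either direction and 5.42% higher. *Irf7* rose by 0.55 (SE 0.0762, adjusted p = 0.000463) and *Oasl2* by 0.48 (SE 0.0953, adjusted p = 0.00485). *Dtx3l* rose by 0.24 (SE 0.0594, adjusted p = 0.0172), *Xaf1* by 0.30 (SE 0.0837, adjusted p = 0.033), *Ifi27l2a* by 0.55 (SE 0.162, adjusted p = 0.0395) and *Ifit2* by 0.23 (SE 0.0685, adjusted p = 0.0417). With the number series as a covariate 1 of the 6 still passed, *Irf7* (0.53, adjusted p = 0.00622). The sum holds hippocampus 154Q-76, whose brainstem marker sum was 344 CPM, against 581 to 705 CPM in 154Q brainstem. It is thus not wholly free of brainstem. The same library enters the 154Q values of the later sums and of the test of genotype by region. Without hippocampus, and with only cerebellum and striatum, fewer members passed. Striatum and cortex held the fewest counts and so weigh less in the sum.

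By direction alone, 13 of the 37 members were above WT in all 4 regions of 154Q mice outside the brainstem (*Ifit2*, *Ifi44*, *Ifih1*, *Ddx58*, *Irf7*, *Oasl2*, *Gbp7*, *Xaf1*, *Parp9*, *Parp14*, *Trim30a*, *Lgals3bp* and *Tap1*), beside 17.2% of the 17540 genes tested in every region. No member was below WT in all 4. Whether the genotype differences varied between regions was tested in 1 model of the libraries of the 4 regions outside the brainstem. In this model no member passed with edgeR, beside 2.39% of all genes by edgeR. At an unadjusted p under 0.05 there were 6 members, and DESeq2 called 2. The lowest adjusted p-values with edgeR were those of *Dtx3l* (0.0997) and *Stat2* (0.103).

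**Figure D3:**
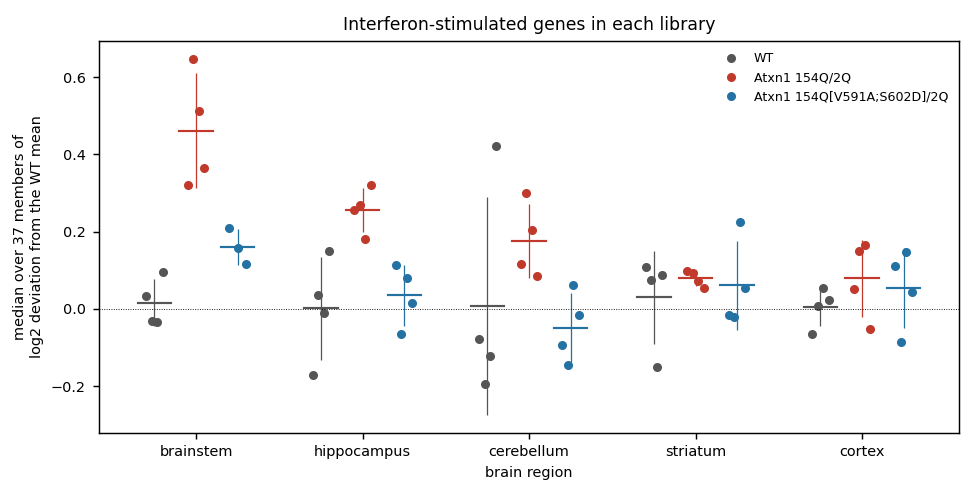
Median over the 37 members of the log2 deviation from the WT mean of the region, 1 point per library, by region and genotype, with the mean and SD of each group. In brainstem the 154Q libraries (0.32 to 0.65) lie above the 154Q-AXH (0.12 to 0.21) and WT libraries, and in cerebellum WT mouse 77 (0.42) lies above every other library.

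The per-mouse medians show how far single mice carried the pattern. In brainstem they were 0.32, 0.65, 0.51 and 0.37 in the 154Q mice, and -0.03, 0.10, 0.03 and -0.03 in the WT mice, in the order used above. In hippocampus the same 154Q mice had 0.26, 0.27, 0.18 and 0.32, and the WT mice -0.01, 0.15, -0.17 and 0.04, so the groups were again apart. In striatum (0.05 to 0.10 in 154Q, -0.15 to 0.11 in WT) and in cortex (-0.05 to 0.16 in 154Q, -0.06 to 0.05 in WT) they overlapped. No 154Q mouse was highest in every region.

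**Figure D4:**
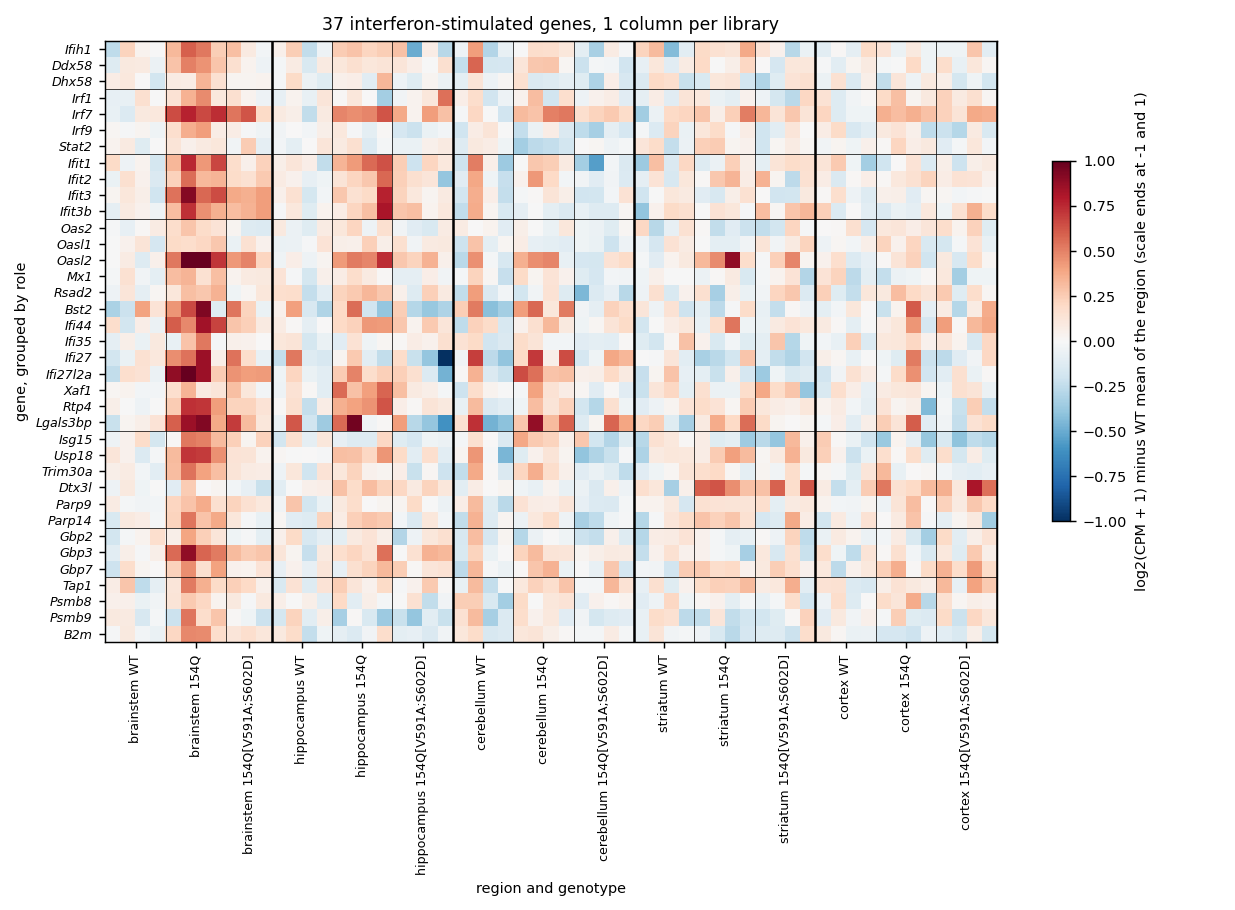
Log2(CPM + 1) of each of the 37 members minus the WT mean of the region, in all 59 libraries, with members in rows grouped by role and libraries in columns grouped by region and genotype. The colour scale runs from -1 to 1. Brainstem of 154Q mice and cerebellum of WT mouse 77 (median deviation 0.42) stand out as columns above WT across roles.

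In 154Q-AXH mice, in which binding to CIC is disrupted, the medians over members against all WT mice were lower than in 154Q mice. The median log2 fold change against WT was 0.15 in brainstem (33 of 37 above 0), 0.06 in hippocampus (21), 0.03 in striatum (19), 0.05 in cortex (23) and -0.12 in cerebellum (8). The cerebellar value depended on the WT mice: without WT-77 it was 0.03, and against the 2 WT mice of its own series it was 0.06. In that last fit 5 members were past the threshold, with no share of all genes given for it. With all WT mice, no member passed with edgeR in these regions. At an unadjusted p under 0.05 there were 2 members in cerebellum, 4 in hippocampus, 1 in striatum and 6 in cortex, and DESeq2 called none in the first 3 regions and 1 in cortex. With edgeR and all WT mice, 2.21% of all genes passed in cerebellum, 1.3% in hippocampus, 1.35% in striatum and 7.15% in cortex. In brainstem 9 members had no overlap with WT (*Ifit3*, *Ifit3b*, *Ifi27l2a*, *Irf7*, *Oasl2*, *Gbp3*, *Parp9*, *Rtp4* and *B2m*), beside 4.69% of all genes. At the adjusted threshold edgeR called no member there, beside 0.0138% of all genes by edgeR. At an unadjusted p under 0.05 there were 9 members, and DESeq2 called 2, with no share of all genes given for either. These brainstem values are a description only.

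*Irf7* was the exception when regions were summed. Outside the brainstem it rose by 0.34 in 154Q-AXH against WT (SE 0.0784, adjusted p = 0.0175), the only member called, beside 8.39% of all genes (3.63% higher). Its log2 fold changes were 0.27 in cerebellum, 0.43 in hippocampus, 0.28 in striatum and 0.39 in cortex, and the values for 154Q were 0.54, 0.76, 0.34 and 0.46. Both comparisons share the WT libraries. *Dtx3l* stood at 0.20 (SE 0.0599, adjusted p = 0.053) in the sum. The call of *Irf7* was lost without mouse 154Q-AXH-217, the female of that group, and with the number series as a covariate (0.36, adjusted p = 0.0651).

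The direct comparison of the mutant genotypes had the members lower in 154Q-AXH than in 154Q, without a call by edgeR. In cerebellum 35 of 37 were below 0 with a median of -0.26, and in hippocampus 35 of 37 with a median of -0.28. Of all genes, 47.4% were above 0 in cerebellum and 47.9% in hippocampus. In brainstem all 37 were below 0 with a median of -0.31, which describes a region the rule used. In striatum and cortex the medians were -0.04 in each. At an unadjusted p under 0.05 there were 9 members in cerebellum, 7 in hippocampus, 1 in striatum and none in cortex. The share of all genes at that unadjusted threshold is not given, so these counts have no background beside them. DESeq2 called 1 in cerebellum and 1 in hippocampus. In the sum over the 4 regions 34 of 37 were below 0, with a median of -0.15, where 49.2% of all genes were above 0. There edgeR called no member, beside 0.147% of all genes by edgeR. At an unadjusted p under 0.05 there were 15 members, and DESeq2 called 4. Few genes of any kind passed the adjusted threshold with edgeR, 0.0335% in cerebellum and 0.0% in the other 3 regions outside the brainstem. Hippocampal *Oasl2* had -0.40 (SE 0.102, unadjusted p = 0.00194, adjusted p = 0.422). The mouse number series is fully confounded with genotype in this comparison. Set against the 2 WT mice of its own series, each mutant gave other medians: -0.04 for 154Q and 0.06 for 154Q-AXH in cerebellum, 0.16 and 0.13 in hippocampus, and 0.44 and 0.19 in brainstem. In striatum they were 0.095 for 154Q and 0.006 for 154Q-AXH, and in cortex 0.089 and 0.091. The cerebellar order of the mutants was then turned, and the hippocampal and cortical medians were close.

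**Figure D5:**
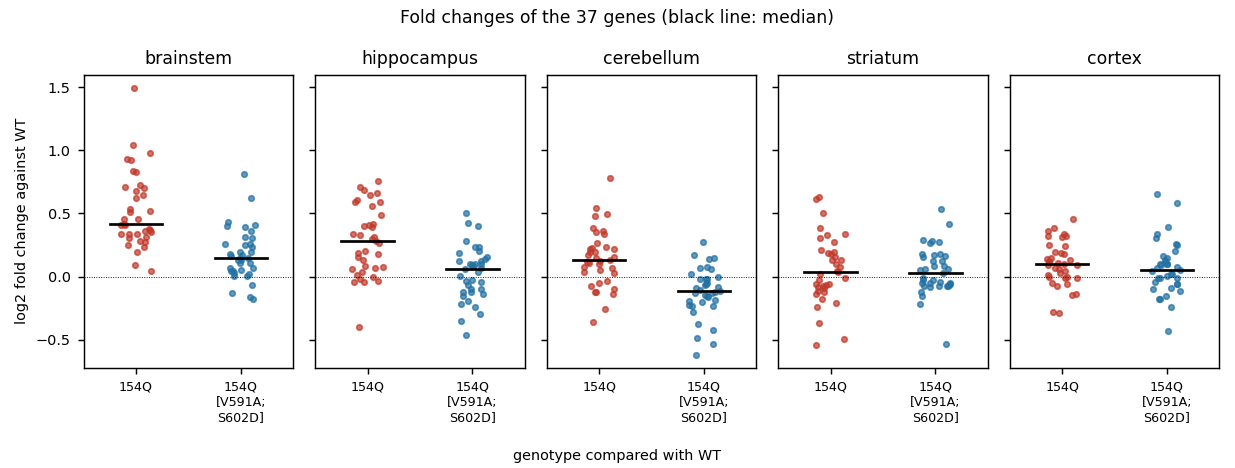
Log2 fold change of the 37 members against WT, for 154Q and 154Q-AXH side by side in each region, 1 point per member and a line at the median. Both genotypes are compared with the same WT libraries. The median falls from 0.42 to 0.15 in brainstem and from 0.28 to 0.06 in hippocampus, and is near 0 in striatum and cortex.

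A group of 3 members varied with another tissue. The choroid plexus, the secretory epithelium of the ventricles, was present in the dissections to very different degrees: the summed level of 5 choroid plexus markers (*Ttr*, *Folr1*, *Kl*, *Kcne2* and *Clic6*) ran from 32.7 to 4760 CPM over the brainstem libraries. *Bst2* (tetherin, which holds budding virus at the cell surface), *Ifi27* and *Lgals3bp* (a secreted glycoprotein) rose with this level at fixed genotype. For each doubling of the marker level *Bst2* rose by 0.13 in brainstem (log2, SE 0.0185, adjusted p = 0.000595) and by 0.16 in hippocampus (SE 0.0368, adjusted p = 0.0275). *Ifi27* rose by 0.07, 0.14 and 0.10 per doubling in brainstem, hippocampus and cerebellum, and *Lgals3bp* by 0.06, 0.16 and 0.11, each past the threshold. In cerebellum *Bst2* stood at 0.09 (adjusted p = 0.0661). No other member passed in a region, and none in striatum or cortex, where 0.304% and 0.613% of all genes were higher with the markers, against 2.83% in brainstem, 2.42% in hippocampus and 1.89% in cerebellum.

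The 4 brainstem libraries with a marker sum under 100 CPM (WT-70, WT-77, 154Q-76 and 154Q-AXH-218) had 2.12 to 2.71 CPM of *Bst2*, and the 7 with 500 CPM or more had 3.27 to 6.44 CPM, without overlap. With the marker level as a covariate, the brainstem log2 fold change of 154Q against WT went from 0.65 to 0.43 for *Bst2*, from 0.51 to 0.38 for *Ifi27* and from 0.72 to 0.62 for *Lgals3bp*. For *Irf7* it went from 0.92 to 0.88. In hippocampus the fold change of *Lgals3bp* went from 0.41 to 0.62. The covariate was chosen after the values were seen.

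The wider pathway was followed with 91 further genes, of which 77 to 82 were measured in a comparison. Transcripts of the 8 interferon genes looked up were almost absent: 2 of the 8 (*Ifna4* and *Ifnl2*) had no count in any library, and the highest count of any of them in a library was 6 (*Ifnk*). Other interferon genes were not looked up. The receptor gene *Ifnar1* rose in 154Q striatum (0.22, SE 0.0558, adjusted p = 0.0372). In 154Q hippocampus 7 of 79 pathway genes rose and 1 fell, beside the 5.91% of all genes called there. Among the risers were *Eif2ak2*, the RNA-activated kinase PKR (0.67, SE 0.108, adjusted p = 0.00455), *Ddx60* (0.90), *Rnf213* (0.51), *Cmpk2* (0.45), *Irgm1* (0.42) and *Samhd1* (0.23), and *Slfn2* fell by 0.67. In 154Q cerebellum 2 rose, *Ifi203* (1.21) and *Cmpk2* (0.26), and *Irf3* fell by 0.28, which is 3 of 81 beside 5.22% of all genes. In striatum 3 rose and 2 fell of 77 (5.69% of all genes), and in cortex 4 rose and 5 fell of 78 (11.1% of all genes). In the sum over the 4 regions 9 rose and 2 fell of 82, beside 12.6% of all genes.

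Not every gene of the pathway was higher in mutant tissue. *H2-T23*, a non-classical class I gene, had 14.9 to 26.0 CPM in WT striatum and 10.6 to 11.9 CPM in 154Q (-0.88, SE 0.146, adjusted p = 0.0049). In cortex it had 21.5 to 24.2 CPM in WT, 11.9 to 14.1 CPM in 154Q and 14.0 to 16 CPM in 154Q-AXH. The WT libraries were above all mutant libraries, and the mutant genotypes overlapped. *Slfn2* fell by 0.94 in 154Q striatum and by 1.00 in 154Q-AXH hippocampus. In 154Q-AXH against WT, 2 rose and 1 fell in hippocampus (1.3% of all genes), 1 fell in striatum (1.35%), 3 rose and 4 fell in cortex (7.15%), and edgeR called none in cerebellum (2.21%). In the sum over the 4 regions none rose and 6 of 82 fell, beside 8.39% of all genes: *H2-T23*, *Slfn2*, *Herc6*, *Irf2*, *Znfx1* and *Socs3*. Of the astrocyte markers, the sums were lower in 154Q than in WT in cortex (927 to 1058 against 1149 to 1267 CPM), striatum (819 to 883 against 978 to 1069 CPM) and cerebellum (2332 to 2465 against 2531 to 2845 CPM), and their part in these results was not tested.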

How the data were processed

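The members and the other gene lists were chosen with earlier results of these data known. RNA was isolated with a miRNeasy kit and polyA RNA was sequenced as read pairs. Per the submitters' notes, reads were trimmed with Trimmomatic 0.36 and aligned with STAR 2.7.2d to GRCm38.p6. The deposited values are raw read counts per gene and library, as the authors' STAR run gave them. The column without strand was used, since 48.9 to 50.1% of stranded counts fell on the first strand. The 4 summary lines (18.8 to 24.7% of pairs) and 1 transgene line were left out. STAR counts only uniquely placed pairs in 1 gene, so near copies and overlapping genes lose reads.

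Counts were tested within each region over all genes with edgeR 4.0.16 (R 4.3.3), with TMM library sizes, filterByExpr, the quasi-likelihood test and Benjamini-Hochberg adjustment at 0.05, all 3 genotypes in 1 model. Counts of the 4 regions outside the brainstem were also summed per mouse. Genotype by region and region in WT were tested over single libraries. CPM used TMM sizes, and fold changes are log2. The procedure was tested on simulated data. DESeq2 1.42.0, limma 3.58.1, other filters, size factors, covariates and leaving out each library were alternatives. Members given library by library were picked from those called outside the brainstem, those with no overlap with WT in 154Q brainstem, and the highest per length. Not all of the 22 with no overlap were given in this way. The values of 1 further pathway gene are not reported here. Marker sums are summed CPM of fixed lists of cell type markers.

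Libraries of 1 mouse share its number, per the labels. Over 13681 genes, deviations of 116 same-mouse library pairs had a median correlation of 0.0999 (-0.586 to 0.635, 58 over 0.1), against -0.0168 for other mice of the genotype.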

Additional observations from a re-analysis of the deposited data

Results flagged for a closer look

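Groups of 4 libraries were screened for a sample far from the other 3, in 182 groups of the members shown by library, and 11 were picked out. Chance alone picks out about 1 in 20 groups. In hippocampus, *Irf7* was lowest in WT at 1.2 CPM (the next library had 1.72) and highest in 154Q at 3.03 CPM (next 2.67), and *Ifit3* was highest in 154Q at 12 CPM (next 8.21). *Oasl1* was highest in 154Q hippocampus at 0.380 CPM (next 0.216) and in 154Q cerebellum at 0.367 CPM (next 0.222), and lowest in 154Q-AXH cerebellum at 0.126 CPM (next 0.239). The highest hippocampal values of *Irf7* and *Ifit3* in 154Q came from mouse 76, whose library held brainstem markers.

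In cerebellum, *Rtp4* was highest in WT at 2.86 CPM (next 1.94), in mouse 77. In striatum, *Usp18* was lowest in WT at 0.467 CPM (next 0.935), *Lgals3bp* was highest in 154Q-AXH at 15.3 CPM (next 13.6), and the median deviation over the 37 members was lowest in WT at -0.15 on the log2 scale (next 0.07). In cortex, *Ifit1* was lowest in 154Q-AXH at 2.42 CPM (next 3.11).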

How the results depend on the processing

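With few mice, counts of members past the threshold moved easily, while no recomputed fold change of a member called outside the brainstem changed sign. The cerebellar median over members did: with the number series as a covariate it went from 0.13 to -0.04 in 154Q and from -0.12 to 0.06 in 154Q-AXH. Adding the number series as a covariate left 1 member in 154Q cerebellum, 2 in brainstem, 1 in hippocampus, 0 in cortex, 1 in the sum over 4 regions and 0 in the 154Q-AXH sum. Against WT mice of the same series the 154Q counts were 0 in cerebellum, 1 in brainstem, 0 in hippocampus and 0 in cortex, and 154Q-AXH cerebellum had 5. In 154Q, fitting only the genotypes compared gave 1 in cerebellum, 6 in brainstem and 0 in cortex, and gave 1 for 154Q-AXH against 154Q in cerebellum. DESeq2 called 21 in 154Q and 2 in 154Q-AXH brainstem, 3 between the mutants there, 1 each between the mutants in cerebellum and hippocampus, 2 in 154Q striatum, 1 in 154Q-AXH cortex, 2 in the 154Q-AXH sum and 2 for the interaction. The *Xist* covariate left 3 in 154Q hippocampus, and the choroid plexus covariate, chosen after seeing the data, gave 5 in 154Q cerebellum. No filter gave 1 in 154Q-AXH cortex, limma-voom gave 2 in the 154Q-AXH sum, and leaving out the exchanged cortical pair gave 0 in 154Q cortex. Without hippocampus the 154Q sum had 2. With only cerebellum and striatum, the regions with no library in doubt (also chosen after seeing the data), it had 1 and the 154Q-AXH sum 0. The causes were not tested. Shares of all genes past the threshold are not given for these alternatives. Their counts of members, here and below, thus have no background beside them.

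Leaving out 1 mouse gave 1 to 7 members in 154Q cerebellum (7 without WT-77, 1 without WT-221, 154Q-75 or 154Q-76), 4 to 13 in brainstem (4 without WT-221, 5 without WT-220, 6 without WT-77, 154Q-71, 154Q-75 or 154Q-AXH-209, 7 without WT-70) and 4 to 8 in hippocampus (4 without WT-70, WT-220, WT-221 or 154Q-75). It gave 0 to 1 in 154Q striatum, in 154Q cortex (0 without WT-77, WT-220, WT-221 or any 154Q mouse), in 154Q-AXH cortex and between the mutants in cerebellum. The 154Q sum had 2 to 12 (12 without WT-77, 2 without WT-70, 3 without WT-220, WT-221 or 154Q-71), the 154Q-AXH sum 0 to 2 (0 without 154Q-AXH-217) and region in WT 22 to 27. *Irf7* in the 154Q sum stayed past the threshold in all 21 alternatives.

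No paired analysis was possible because genotypes share no mouse, for the genotype comparisons. With the mouse as a replicate block, the interaction had 0 members past the threshold and region in WT 32, which changed no other call by over 1.5 times. Depth limits *Mx1* and *Oasl1*, with 1 to 59 and 2 to 50 counts a library.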
